A study of Mus musculus with 9 samples.

Results

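The GATA factors and their GFI partners were taken as 8 genes, found by symbol among the 23471 genes of the RNA tables and among the annotated genes of the H3K4me3 peak lists. They are the zinc finger factors Gata1, Gata2 and Gata3, the GATA cofactor Zfpm1 (FOG1), the repressors Gfi1 and Gfi1b, and Tal1 and Lmo2, which join GATA factors in a complex on DNA. All 8 were found in the RNA tables, and 7 passed the filter on low counts. Gata3 did not pass it, and its values are given without the main test.

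Untreated Balb/c mice, of unstated age and sex, gave the pooled bone marrow from which cells were sorted, and no group carried a transgene or a deletion. GMP (granulocyte-macrophage progenitors) were Lin-, CD34+, c-kit hi and CD16/32+, EoP (eosinophil progenitors) were Lin-, CD34+, c-kit lo and CD125+, and Eos (mature eosinophils) were Siglec-F+ and CCR3+. Each cell type gave 2 RNA libraries from separate sorts and 1 H3K4me3 library. No source used here says that the sorts came from different mice, so the spread behind each p-value is that between these sorts and may be technical.

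GATA factors bind the letters GATA and act with cofactors as activators or repressors. Exchange of GATA2 for GATA1 at shared sites, known as the GATA switch, is a textbook step of erythroid development, and GATA1 is required for eosinophils to form. FOG1 binds GATA1 and recruits the NuRD repressor complex, while GFI1 and GFI1B recruit the LSD1 and CoREST repressor complex. TAL1 binds E-boxes with E proteins, and LMO2 bridges TAL1, LDB1 and GATA factors without touching DNA.

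RNA libraries held from 5226653 to 12088134 estimated counts. GMP libraries had the fewest counts and the most genes with a count (19677 and 20542), while the EoP libraries had 14350 and 14970 and the Eos libraries 15924 and 16489. All 10 eosinophil markers tested were higher in EoP than in GMP, and again in Eos than in GMP, but in Eos 6 were lower than in EoP and 3 higher (3 and 1 without EoP replicate 1, 4 and 1 without EoP replicate 2, 4 and 2 without Eos replicate 2). Their sums were 241538 and 193038 CPM (counts scaled to library size with TMM factors) in EoP and 21304 and 25069 in Eos. Among the 10, Il5ra encodes CD125 of the EoP gate, and Siglec5 and Ccr3 encode Siglec-F and CCR3 of the Eos gate. Calls of these genes in the cells sorted on them were partly set by the sort. Neutrophil markers summed to 56861 and 53318 CPM in the libraries labelled Eos and to 2977 and 3175 in EoP. The Y-linked genes Ddx3y and Eif2s3y had no count in GMP and from 30.5 to 70.5 CPM in EoP and Eos, so the sex of the pooled mice, which the labels do not give, cannot be told apart from cell type. Gata1 is X-linked.

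The promoter sequences of 4 members surround starts to which results below refer. The H3K4me3 peaks of Gata1 and Tal1 lie outside the windows shown, as does the strongest GMP peak of Gfi1b. They were taken from a RefSeq table on build GRCm38.p6, which held 10 windows for 7 of the 8 members and 32851 windows in all. Each runs 5′ to 3′ on the strand of the gene, from 250 bases before a transcript start to 50 after it. Capitals mark GATA motifs and the GFI motif, read on either strand. A GATA motif was any of the letters AGATAA, and AGATAG, and TGATAA, and TGATAG, and the GFI motif was AAATCA. The 5 windows shown are that of Gfi1b, which alone held both motifs, that of Gata1, which rose from GMP to EoP, both windows of Gata2, of which only the downstream start had an H3K4me3 peak called promoter, and the upstream window of Tal1, near which some of its peaks lay.
Gfi1b (chr2:28621933-28622232, minus strand): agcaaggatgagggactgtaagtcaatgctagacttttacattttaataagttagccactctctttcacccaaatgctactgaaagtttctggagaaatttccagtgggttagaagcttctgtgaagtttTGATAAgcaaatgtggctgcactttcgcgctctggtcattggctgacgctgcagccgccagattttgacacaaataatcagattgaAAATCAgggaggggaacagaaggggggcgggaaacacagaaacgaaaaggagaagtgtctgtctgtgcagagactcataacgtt
Gata1 (chrX:7967861-7968160, minus strand): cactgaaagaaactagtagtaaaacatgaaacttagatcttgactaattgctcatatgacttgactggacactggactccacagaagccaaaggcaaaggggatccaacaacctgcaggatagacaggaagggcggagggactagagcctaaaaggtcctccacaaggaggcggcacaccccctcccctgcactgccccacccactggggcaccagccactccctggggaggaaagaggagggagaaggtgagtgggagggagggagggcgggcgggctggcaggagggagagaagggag
Gata2, upstream start (chr6:88193641-88193940, plus strand): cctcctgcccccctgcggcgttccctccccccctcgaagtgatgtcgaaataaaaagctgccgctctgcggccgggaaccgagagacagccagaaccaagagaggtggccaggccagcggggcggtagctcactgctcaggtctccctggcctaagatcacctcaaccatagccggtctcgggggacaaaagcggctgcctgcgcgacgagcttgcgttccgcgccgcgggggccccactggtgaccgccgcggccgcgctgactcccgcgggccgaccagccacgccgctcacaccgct
Gata2, downstream start (chr6:88198414-88198713, plus strand): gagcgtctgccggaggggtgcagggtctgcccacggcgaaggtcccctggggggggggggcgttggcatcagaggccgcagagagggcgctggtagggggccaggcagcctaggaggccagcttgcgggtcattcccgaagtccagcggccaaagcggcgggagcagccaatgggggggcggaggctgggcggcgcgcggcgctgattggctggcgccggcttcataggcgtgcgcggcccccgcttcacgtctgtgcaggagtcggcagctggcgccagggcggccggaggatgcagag
Tal1, upstream start (chr4:115056176-115056475, plus strand): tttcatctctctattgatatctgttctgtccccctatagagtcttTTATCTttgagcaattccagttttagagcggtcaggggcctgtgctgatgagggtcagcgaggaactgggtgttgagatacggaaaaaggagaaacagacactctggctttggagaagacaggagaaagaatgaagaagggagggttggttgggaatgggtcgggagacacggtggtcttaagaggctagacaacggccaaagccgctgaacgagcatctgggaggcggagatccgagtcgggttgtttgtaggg

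The Gfi1b window held TGATAA 120 bases and AAATCA 34 bases upstream of the start, with a CCAAT match on the other strand (ATTGG) at 83 bases and E-boxes (CANNTG) at 180 and 113. The Gata1 window and both Gata2 windows held neither motif. The downstream Gata2 window held CCAAT matches 83 and 45 bases upstream. TTATCT, which is AGATAA on the other strand, lay 205 bases upstream of the Tal1 start. Over the 10 windows of members, 3 held a GATA motif, the third being that of Gata3, and 1 the GFI motif. Among all windows of the table, 29.8% held a GATA motif, 14.0% the GFI motif, 37.4% CCAAT and 72.3% an E-box. A match is a description of these letters and not a measured site.

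From GMP to EoP, Gata1, Gfi1b and Zfpm1 rose, Lmo2 fell, and Gata2, Gfi1 and Tal1 did not pass the test. Of the 7 members tested, 3 were higher, against 9.49% of all 14324 genes tested, and 1 was lower, against 17.1% (a call is a Benjamini-Hochberg adjusted p under 0.05 by the quasi-likelihood test of edgeR). With no regard to the test, both libraries of EoP were above both of GMP for 3 members (31% of all genes) and below for 3 (39%). The median log2 fold change was 0.01 over the members and −0.07 over all genes tested. In bulk RNA, a smaller share of cells that express a gene and less RNA in each cell cannot be told apart.

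Gata1, the erythroid and eosinophil GATA factor (chrX:7959260-7967910 on mm10), had 4.24 and 5.36 CPM in GMP, 69.6 and 60.3 CPM in EoP and 64.8 and 90.0 CPM in Eos. GMP libraries were low and the EoP and Eos libraries overlapped. In estimated counts, GMP held 35 and 36, so Gata1 was detected in both. The rise from GMP to EoP was 13.6-fold (log2 fold change 3.76, SE 0.29, seen in both EoP libraries; edgeR, adjusted p = 5.72e-05). Between EoP and Eos Gata1 did not pass (log2 fold change 0.25, 95% interval −0.29 to 0.79; adjusted p = 0.427), and Eos stood 16.2-fold above GMP (log2 fold change 4.01, SE 0.29; edgeR, adjusted p = 8.64e-06), or 3.42 with library size alone.

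Gata2, the GATA factor of stem cells, mast cells and early progenitors (chr6:88198664-88207032), had 78.4 and 113 CPM in GMP, 46.3 and 147 CPM in EoP and 19.3 and 7.83 CPM in Eos. The 2 EoP libraries lay on either side of the GMP libraries, and both Eos libraries were below all others. Gata2 did not pass between GMP and EoP (log2 fold change 0.01, SE 0.50, 95% interval −1.11 to 1.14; edgeR, adjusted p = 0.989). It fell from EoP to Eos by 2.83 log2 units (SE 0.55; 7.09-fold; edgeR, adjusted p = 0.00362), and Eos were below GMP by a log2 fold change of −2.81 (SE 0.55; adjusted p = 0.00266). The fall from EoP was 1.74 without EoP replicate 2, 3.44 without EoP replicate 1 and 3.64 without Eos replicate 1, and the value against GMP was −3.60 without Eos replicate 1, all still called.

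Within EoP, 10 of 16 mast cell and basophil markers were higher in replicate 2, as Gata2 was, 3 were lower and 3 had no count in either. The sum of the 16 was 1812 and 4641 CPM in EoP replicates 1 and 2, from 1594 to 1602 in GMP and from 337 to 469 in Eos. Prss34, a basophil protease gene, had 282 and 1782 CPM in EoP, and Mcpt8, another, 141 and 806. The 3 that were lower in replicate 2 were Hdc, for histamine synthesis (653 and 520 CPM), Il4 (23.2 and 12.9) and Mitf (6.49 and 5.49). Of 13 markers tested, 3 rose (Hdc, Il4 and Cd200r3) and 2 fell (Gzmb and Tpsb2) from GMP to EoP, and the Eos libraries were higher than EoP for 3 and lower for 8. Tpsb2, Mcpt4 and Tpsab1, 3 mast cell protease genes, were those with no count in EoP. With 1 library left out, the number that rose from GMP to EoP ran from 1 without GMP replicate 1 to 7 without EoP replicate 1, and it was 6 without either Eos library. Of 12 stem and multipotent progenitor markers, 5 were lower in EoP than in GMP, a step at which Gata2 did not pass. From EoP to Eos, where Gata2 fell, 2 were higher and 3 lower. Their sums were 693 to 726 CPM in GMP, 295 to 378 in EoP and 126 to 303 in Eos, so those of EoP and Eos overlapped. The 5 that were lower in EoP became 1 without either GMP library or EoP replicate 1, 2 without EoP replicate 2 and 8 without either Eos library. The part of either cell type in the Gata2 values was not tested. Kit, for c-kit, by which the sort set GMP (hi) apart from EoP (lo), is in both marker lists. Cd34, of both gates, is in the stem and multipotent progenitor list.

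Gata1 RNA exceeded Gata2 RNA per length in Eos and was below it in GMP. The ratio of Gata1 to Gata2 in RPKM (counts scaled to transcript length and library size) was 0.0921 and 0.0807 in GMP, 2.56 and 0.702 in EoP and 5.73 and 19.6 in Eos. The EoP libraries stood between the others and on either side of parity, since Gata2 differed between them (5.73 and 19.8 RPKM) while Gata1 did not (14.7 and 13.9 RPKM). A test of this ratio was not run.

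**Figure D1:**
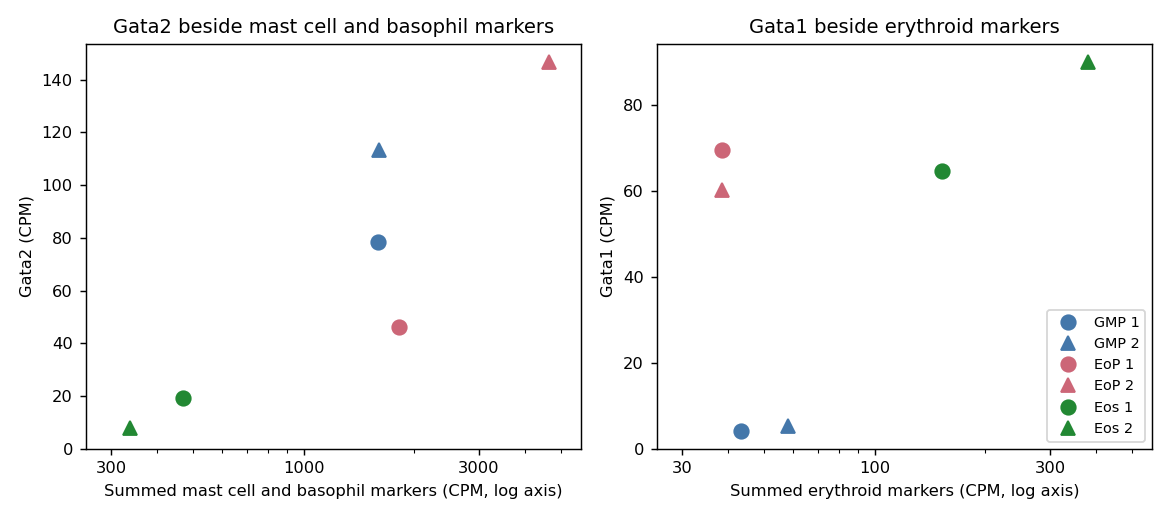
Each point is 1 of the 6 RNA libraries, with a member's CPM (linear axis from 0) against the summed CPM of a marker list (log axis), for Gata2 with mast cell and basophil markers and for Gata1 with erythroid markers. The EoP library with 147 CPM of Gata2 is the one with 4641 CPM of mast cell and basophil markers, and Gata1 is from 60.3 to 90.0 CPM in EoP and Eos while erythroid sums run from 38.3 to 382 CPM.

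Gata1 is also an erythroid and megakaryocyte gene, and the markers of those lineages did not all move as it did. Erythroid markers summed to 43.2 and 57.9 CPM in GMP, 38.3 and 38.5 in EoP and 153 and 382 in Eos. Of the 20 tested, 0 rose from GMP to EoP by edgeR, the step at which Gata1 rose, and 0 rose at an unadjusted p under 0.05 or by DESeq2. Hba-a1 and Hba-a2, for alpha globin, had no count in EoP replicate 1. From EoP to Eos 15 of 20 erythroid markers rose, or 10 without either EoP library or Eos replicate 2. Hbb-b1, for beta globin, went from 1.42 and 2.14 CPM in EoP to 24.1 and 67.4 in Eos. The globin lines Hba-a1 and Hba-a2 have equal counts, as do Hbb-b1 and Hbb-bs, so the genes of a pair are not independent in the sum or in the counts of markers. Whether the same reads were counted again or split between the genes was not tested. Klf1, an erythroid GATA1 partner, had from 1.45 to 5.66 CPM in the 6 libraries.

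Of 11 megakaryocyte markers tested, 3 rose from GMP to EoP (Itga2b, Nfe2 and Nbeal2), or 1 without GMP replicate 1 or 2. Itga2b, an integrin gene of platelets, had 5.33 and 9.09 CPM in GMP, 71.8 and 71.1 in EoP and 16.4 and 18.2 in Eos. Both EoP libraries stood above the rest (log2 fold change 3.32 against GMP, SE 0.30; edgeR, adjusted p = 0.000127). The list summed to 195 and 201 CPM in GMP, 415 and 437 in EoP and 839 and 1191 in Eos, of which Nbeal2 held 549 and 805 in Eos. Pf4, for a platelet chemokine, had 7.55 and 24.3 CPM in EoP, and the platelet glycoprotein genes Gp5 and Gp6 had no more than 8 counts in any library. The part of erythroid or megakaryocyte cells in the Gata1 values was not tested.

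Gata3, the T cell and innate lymphoid GATA factor (chr2:9857078-9878600), had 1 and 4 counts in GMP, 7 and 7 in EoP and 13 and 7 in Eos. In RPKM, the highest of these was 0.132. Every library was near the lower end of detection, and the Eos and EoP libraries touched. With no filter on low counts, Gata3 did not pass for EoP against GMP (log2 fold change 1.06, SE 1.26; edgeR, adjusted p = 0.557) or Eos against EoP (0.56, SE 1.12; adjusted p = 0.832). T cell and innate lymphoid markers summed to 64.9 and 77.8 CPM in GMP, 147 and 164 in EoP and 233 and 484 in Eos. For EoP against GMP, 3 of 15 were higher and 5 lower, or 0 and 0 without GMP replicate 1, and Eos were above EoP for 6 and below for 1. Without GMP replicate 2 or EoP replicate 1 the falls from GMP were 1 and without EoP replicate 2 they were 2. Cd3e, the T cell receptor chain gene, had no count in EoP and 6 and 7 counts in Eos. Il1rl1, for the interleukin 33 receptor, held 337 of the 484 CPM in Eos replicate 2.

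Zfpm1, whose protein FOG1 binds the N-terminal finger of GATA1 (chr8:122282141-122337247), had 1.09 and 6.11 CPM in GMP, 18.2 and 15.6 CPM in EoP and 9.24 and 11.2 CPM in Eos. The GMP libraries, with 9 and 41 counts, were lowest and the EoP libraries highest, with no overlap between cell types. Zfpm1 rose from GMP to EoP by 2.26 log2 units (SE 0.61; 4.78-fold; edgeR, adjusted p = 0.0221). It was 4.08 without GMP replicate 2 (adjusted p = 0.00567) and 1.65 in limma on log2(RPKM + 0.5) (adjusted p = 0.0103). That call was lost without GMP replicate 1 (log2 fold change 1.47, adjusted p = 0.0985) or EoP replicate 1 (2.17, 0.0801), with library size alone as the scaling (1.78, 0.0706) and among genes of at least 50 counts in 2 libraries (2.17, 0.0556). Zfpm1 did not pass from EoP to Eos (log2 fold change −0.72, SE 0.56, 95% interval −1.97 to 0.52; adjusted p = 0.328). For Eos against GMP it was 1.54 (SE 0.61; adjusted p = 0.0541) and passed in 8 of 17 alternatives, among them the replicate number as a block (1.68, adjusted p = 0.0322). It ran from 0.74 without GMP replicate 1 to 3.37 without GMP replicate 2. Per length, Gata1 stood 6.82-fold and 6.89-fold above Zfpm1 in EoP and 12.5-fold and 14.3-fold in Eos.

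**Figure D2:**
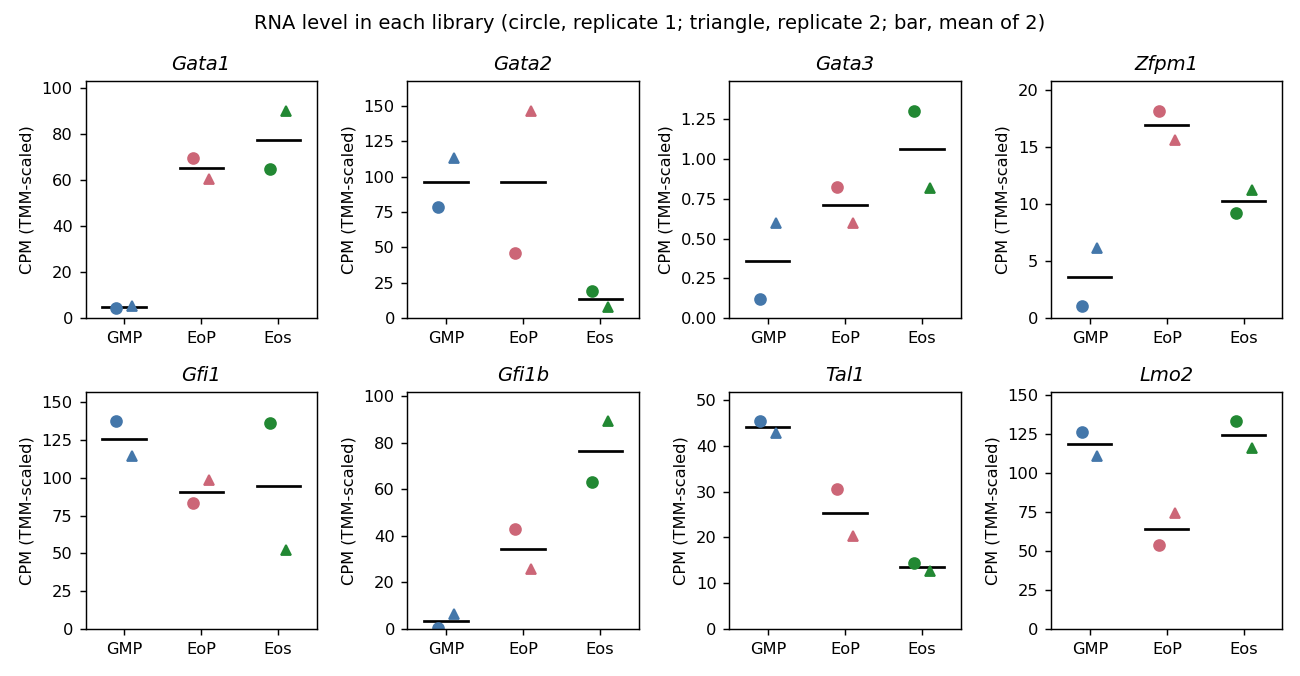
CPM of each of the 8 members in each of the 6 RNA libraries (linear axes from 0, 1 panel per member), with a circle for replicate 1, a triangle for replicate 2 and a bar for their mean. Gata1 and Gfi1b are low in both GMP libraries and high in all EoP and Eos libraries, Gata2 is lowest in Eos, and Gata3 is at most 1.31 CPM.

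Gfi1b, a repressor of the erythroid, megakaryocyte and stem cell lineages (chr2:28609450-28621982), had 0.363 and 6.41 CPM in GMP, 43.0 and 25.9 CPM in EoP and 63.4 and 89.2 CPM in Eos. GMP replicate 1 held 3 counts and GMP replicate 2 held 43, and the cell types did not overlap. The rise from GMP to EoP was 3.40 log2 units (SE 0.73; 10.6-fold; edgeR, adjusted p = 0.00993). Leaving out GMP replicate 1 gave 2.43, leaving out GMP replicate 2 gave 6.66, and the call held both times. Gfi1b did not pass from EoP to Eos in the main fit (log2 fold change 1.15, SE 0.61; adjusted p = 0.161), although both Eos libraries were above both EoP libraries. It passed at that step with no filter on low counts (1.13, adjusted p = 0.000541), and also without GMP replicate 1 or GMP replicate 2. Eos stood 23.4-fold above GMP (log2 fold change 4.55, SE 0.74; edgeR, adjusted p = 0.00103). That value was 3.57 without GMP replicate 1, 7.82 without GMP replicate 2, 3.94 with library size alone and 3.69 in limma on log2(RPKM + 0.5), each still called. Zfpm1 and Gfi1b were both lower in GMP replicate 1 than in GMP replicate 2, while the sum of eosinophil markers was higher there (1240 against 318 CPM).

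Gfi1, a repressor known from neutrophil and lymphoid development (chr5:107716655-107725805), had 137 and 115 CPM in GMP, 83.0 and 98.5 CPM in EoP and 136 and 52.4 CPM in Eos. Both EoP libraries were below both GMP libraries, and the Eos libraries lay on either side of EoP. In the main fit, with both Eos libraries, Gfi1 did not pass at any step. The log2 fold change was −0.47 for EoP against GMP (SE 0.37, 95% interval −1.30 to 0.35; edgeR, adjusted p = 0.384). For Eos against EoP it was 0.06 (SE 0.37, −0.77 to 0.88; adjusted p = 0.932). For Eos against GMP it was −0.42 (SE 0.37, −1.24 to 0.41; adjusted p = 0.351). The later values depended on which Eos library was left out, and the data do not show which is nearer the level of Gfi1. Without Eos replicate 1 the log2 fold change was −0.81 against EoP and −1.25 against GMP. Without Eos replicate 2 it was 0.58 against EoP and 0.14 against GMP. The files divide its counts between transcripts that start at 107724343 and 107725805. The latter held 252 and 193 counts in GMP, 0 and 365 in EoP and 367 and 0 in Eos, so this split was all or nothing between libraries of 1 cell type and is not read further.

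Gfi1b RNA was below Gfi1 RNA per length in 5 of the 6 libraries, all but Eos replicate 2, in which Gfi1 was low (4.89 RPKM, against 15.8 in Eos replicate 1). In RPKM, the ratio of Gfi1b to Gfi1 was 0.00573 and 0.0930 in GMP, 0.852 and 0.425 in EoP and 0.748 and 2.80 in Eos. All GMP ratios were below all others, and the EoP and Eos ratios overlapped.

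**Figure D3:**
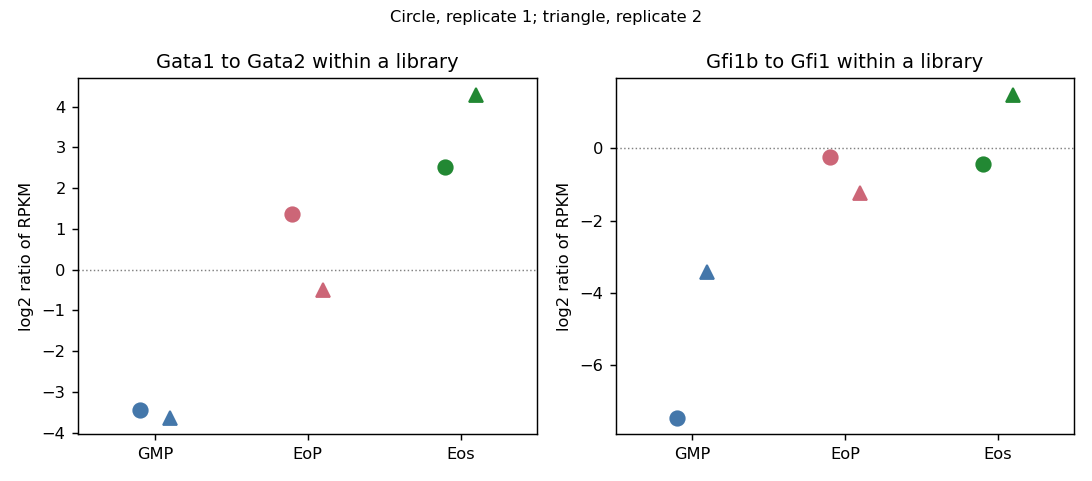
The log2 of the within-library ratio of RPKM values for Gata1 to Gata2 and for Gfi1b to Gfi1, 1 point per RNA library. GMP libraries are lowest for Gata1 to Gata2 (0.0807 and 0.0921) and for Gfi1b to Gfi1 (0.00573 and 0.0930), and the EoP libraries lie on either side of a log2 ratio of 0 for Gata1 to Gata2 (1.36 and −0.51).

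Tal1, the basic helix-loop-helix partner (chr4:115059527-115071755), had 45.4 and 42.8 CPM in GMP, 30.5 and 20.3 CPM in EoP and 14.5 and 12.6 CPM in Eos. The cell types did not overlap and stood in that order. For EoP against GMP the log2 fold change was −0.80 (SE 0.27, 95% interval −1.39 to −0.20), which missed the threshold (edgeR, adjusted p = 0.0513). It passed with DESeq2 size factors (−0.81, adjusted p = 0.0437), with upper quartile factors (−0.98), with library size alone (−1.27) and without Eos replicate 1 or 2. It was −0.35 without EoP replicate 2 (adjusted p = 0.516) and −0.44 in limma on log2(RPKM + 0.5) (adjusted p = 0.209). From EoP to Eos Tal1 fell by 0.90 (SE 0.27; edgeR, adjusted p = 0.0267). The fall was lost without EoP replicate 1 (−0.60, adjusted p = 0.254), Eos replicate 2 (adjusted p = 0.0601), GMP replicate 1 (0.0514) or GMP replicate 2 (0.0517). Eos were below GMP by a log2 fold change of −1.70 (SE 0.28; edgeR, adjusted p = 0.000976), which held in all alternatives run.

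Lmo2, the bridging LIM protein gene (chr2:103957995-103981878), had 126 and 111 CPM in GMP, 53.8 and 74.1 CPM in EoP and 133 and 116 CPM in Eos. Both EoP libraries were below all others, and GMP and Eos overlapped. Lmo2 fell from GMP to EoP by 0.89 (SE 0.23; edgeR, adjusted p = 0.0190) and rose from EoP to Eos by 0.96 (SE 0.23; adjusted p = 0.00976). Eos and GMP did not pass (log2 fold change 0.07, 95% interval −0.44 to 0.58; adjusted p = 0.810). The fall was lost without any 1 of the GMP or EoP libraries (adjusted p from 0.0787 to 0.187) and in limma on log2(RPKM + 0.5) (−0.54). The rise was lost without EoP replicate 1 (0.74, adjusted p = 0.124) and in limma on log2(RPKM + 0.5) (0.43).

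Neutrophil markers dipped in EoP as Lmo2 did. Their sums were 44098 and 39910 CPM in GMP, 2977 and 3175 in EoP and 56861 and 53318 in Eos, with 11 of 16 lower and 1 higher for EoP against GMP and 16 of 16 higher for Eos against EoP. Monocyte and macrophage markers had 8 of 10 lower and 1 higher, and then 6 of 10 higher, with sums of 1237 to 1413 CPM in GMP, 341 to 355 in EoP and 1411 to 2485 in Eos. The part of these cell types in the Lmo2 values, and in the Eos values of the other members, was not tested.

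**Figure D4:**
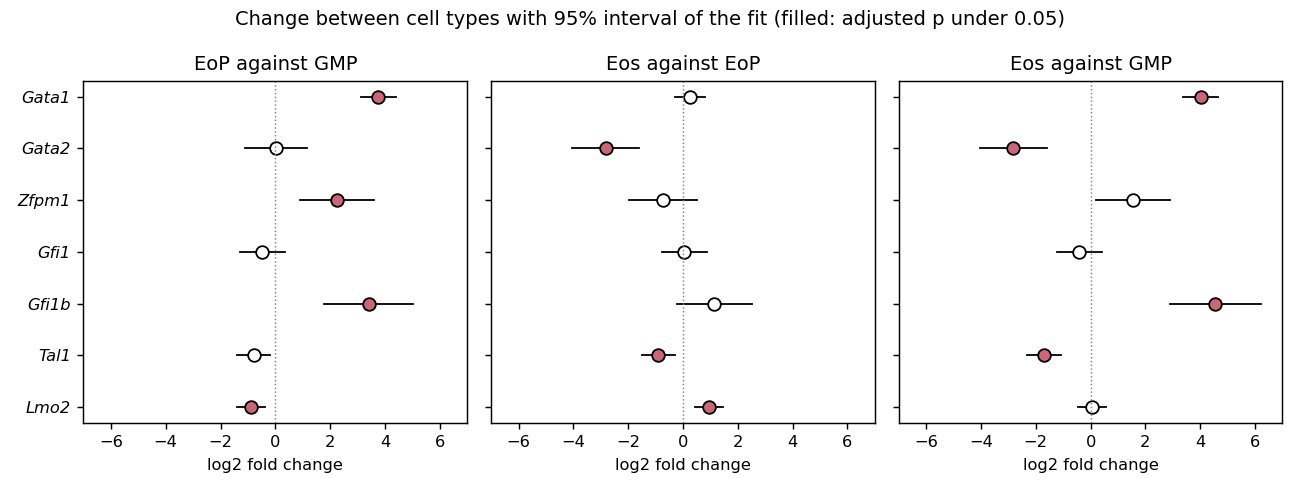
The log2 fold change of each tested member with its 95% interval in the 3 comparisons, which share libraries, with filled points for an adjusted p under 0.05. Gata1 lies at 3.76 and 4.01 against GMP and at 0.25 for Eos against EoP, and the interval of Gata2 spans 0 for EoP against GMP and lies below it in both comparisons with Eos.

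In Eos against EoP, 1 of the 7 members tested was higher, Lmo2, against 19.1% of all genes, and 2 were lower, Gata2 and Tal1, against 17.7%. Both Eos libraries were above both EoP libraries for 2 members (35.4% of all genes) and below for 3 (35.5%). The median over members was 0.06 and over all genes 0.02. For Eos against GMP, 2 were higher, Gata1 and Gfi1b, against 22.7%, and 2 lower, Gata2 and Tal1, against 31.8%. Eos libraries did not overlap GMP for 3 higher members (33.3% of all genes) and 2 lower members (49.7%). The medians there were 0.07 and −0.39. The comparisons share their libraries, so their calls are not independent of each other.

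Per length, Lmo2 was highest and Gata3 lowest in every cell type. In GMP the mean RPKM was 25.2 ± 2.89 for Lmo2, 15.3 ± 2.31 for Gfi1, 10.01 ± 2.33 for Gata2 and 3.60 ± 0.242 for Tal1 (SD, n = 2). These were followed by Gata1 at 0.855 ± 0.121, Gfi1b at 0.683 ± 0.829 and Zfpm1 at 0.356 ± 0.347. The Gfi1b libraries overlapped those of Gata1 and of Zfpm1, while both Gata1 libraries were above both Zfpm1 libraries. In EoP the order was Lmo2 (17.5 ± 4.90), Gata1 (14.3 ± 0.556), Gfi1 (13.5 ± 2.70), Gata2 (12.8 ± 9.93), Gfi1b (8.24 ± 2.37), Tal1 (2.54 ± 0.571) and Zfpm1 (2.08 ± 0.0953). There, Lmo2, Gata1, Gfi1 and Gata2 did not differ beyond their spread, nor did Gata2 and Gfi1b, or Tal1 and Zfpm1. In Eos Lmo2 (23.6 ± 6.13) stood above Gfi1b (12.8 ± 1.33), Gata1 (11.9 ± 1.11) and Gfi1 (10.4 ± 7.72), which overlapped. Gata2 (1.29 ± 0.910), Tal1 (0.970 ± 0.226) and Zfpm1 (0.886 ± 0.00104) overlapped as well.

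H3K4me3, a histone mark of active or poised promoters, was read from the authors' peak lists, with 30645 peaks in GMP, 19816 in EoP and 33847 in Eos. There was 1 library per cell type, so no difference between cell types was tested, and a peak missing from the shorter EoP list is not evidence of a missing mark. By the deposited annotation, 7 of 8 members had a promoter peak in GMP, 6 in EoP and 7 in Eos, against 56.6%, 48.3% and 50.6% of all 23471 genes. Tal1 had none in any list and Gata2 none in EoP. Every member had a peak within 1000 bases of a RefSeq or listed start in each of the 3 lists, against 57.4%, 49% and 51.5% of all genes, and so also within 3000 bases (59.5%, 50.6% and 54.4%). Among the 19816 top-ranked peaks of each list, 5 members had a promoter peak in GMP (52.1% of all genes), 6 in EoP (48.3%) and 7 in Eos (48.8%).

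At Gata1, H3K4me3 was listed in all cell types, GMP with its 0.770 and 0.940 RPKM of RNA included. Promoter peaks covered 786 bases in GMP, 775 in EoP and 669 in Eos, all downstream of the start whose sequence is given above. The best peak had a −log10 q of 4.68 in GMP, 6.10 in EoP and 6.95 in Eos, at percentile 6.96, 13.2 and 17.3 of that score. The covered length lay at percentile 33.7, 47.8 and 37.6. Both percentiles are among genes with a promoter peak in its own list. These scores and folds are the authors' and are read only within a list. Both GMP peaks fall outside the 19816 top-ranked peaks of the GMP list.

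At Gfi1b, promoter peaks covered 929 bases in GMP, 696 in EoP and 991 in Eos, or percentile 47.8, 38.5 and 73.3 within each list. The best −log10 q was 9.75, 5.91 and 13.8, at percentile 18.9, 12.5 and 38.7 of that score. The strongest GMP peak, chr2:28621446-28621900, lay 82 bases downstream of the start that follows the TGATAA and AAATCA letters, and had a fold enrichment of 7.49 in a cell type whose libraries held 3 and 43 counts of Gfi1b RNA. In Eos a single peak of 797 bases, chr2:28621134-28621930, had a fold enrichment of 8.67.

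Gata2 had promoter peaks at its downstream start in GMP, covering 445 bases, and in Eos, where chr6:88198712-88199019 covered 308 bases. In EoP, the cell type with 5.73 and 19.8 RPKM of Gata2, the list held no peak there. It held chr6:88194056-88194220, 165 bases downstream of the upstream start, with a −log10 q of 1.85. Peaks near that start were listed also in GMP (chr6:88194012-88194296) and in Eos (chr6:88193644-88193790). The GMP peaks at the downstream start had low scores, with a best −log10 q of 2.71, and are outside its top-ranked peaks.

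Gata3 had a promoter peak in all lists although its RNA did not exceed 0.132 RPKM. Covered lengths were 440 bases in GMP, 294 in EoP and 220 in Eos, at percentile 11.9, 7.0 and 7.11. The EoP peak, chr2:9879275-9879568, and the Eos peak, chr2:9879467-9879686, lay 675 and 867 bases upstream of the start. Zfpm1 had promoter peaks of 658, 628 and 690 bases in GMP, EoP and Eos, at percentile 23.4, 30 and 40.1.

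Gfi1 and Lmo2 had wide marks by summed length. Promoter peaks of Gfi1 covered 2296 bases in GMP, 1530 in EoP and 1867 in Eos, at percentile 99.7, 98.2 and 99.4, and those of Lmo2 covered 1838, 1260 and 1706 bases, at percentile 97.8, 91.5 and 98.7. Both genes have several annotated starts close together, over which covered bases are summed. Lmo2 had the best −log10 q of the members in each list, at 26.1, 15.7 and 16.7, or percentile 48.5, 54.7 and 49.8 of that score. That of Gfi1 was 11.6, 5.23 and 7.90, at percentile 21.9, 9.96 and 20.2. In EoP the Gfi1 mark was made of 6 separate peaks.

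The peaks of Tal1 that lay near a start were at starts that the RNA tables do not list. In GMP chr4:115057010-115057555 and chr4:115057619-115058247 flanked or covered the RefSeq start at 115057811, with −log10 q values up to 21.0. In EoP chr4:115056640-115057528 began 214 bases after the start at 115056426, and chr4:115057718-115058243 covered the start at 115057811. In Eos the peaks were of 136 and 245 bases, with the best −log10 q at 2.73. The start listed in the RNA tables, 115059527, is further downstream. Exonic peaks followed it in all 3 lists, chr4:115062893-115064026 in GMP, with 1134 bases, being the longest peak of Tal1.

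Promoter peaks of the members were compared between lists by at least 1 shared base with a promoter peak of the same gene. Of the GMP peaks, 13 of 18 (72.2%) overlapped an EoP peak, against 71% over all genes, and 14 of 14 EoP peaks overlapped a GMP peak, against 98.6%. Between GMP and Eos, 16 of 18 GMP peaks (88.9%) and 11 of 11 Eos peaks overlapped, against 74.6% and 94.3%. Between EoP and Eos, 14 of 14 EoP peaks and 8 of 11 Eos peaks (72.7%) did, against 91.9% and 84.6%. Nothing particular to the members is read from these shares.

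**Figure D5:**
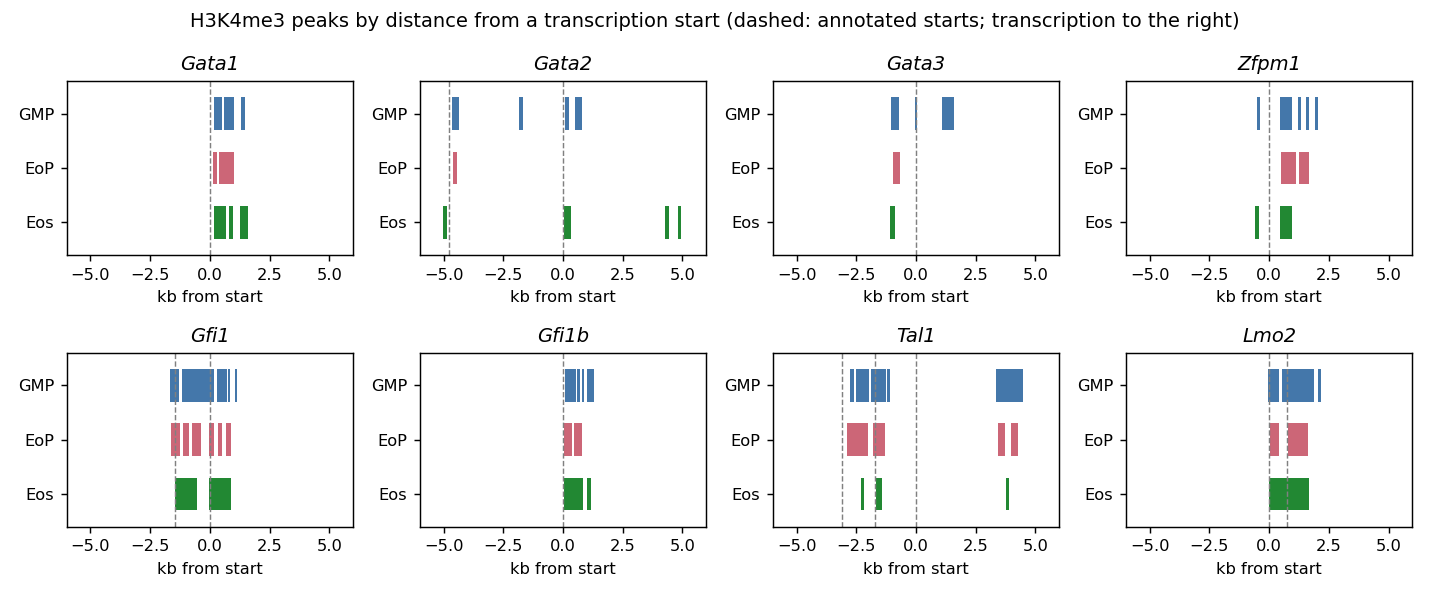
Deposited H3K4me3 peaks as bars by distance in kilobases from a start of each member, in the direction of transcription, with 1 row per cell type and dashed lines at annotated starts. Gfi1 and Lmo2 have wide marks by summed length, that of Gfi1 in EoP being 6 separate peaks. Gata2 has no EoP bar at its downstream start, and Tal1 has bars upstream of the start listed in the RNA tables and, in its exons, downstream of it.

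Partner genes were read from lists of known complexes. Of 10 LSD1 and CoREST genes tested, which GFI1 and GFI1B recruit, 1 rose from GMP to EoP (Rcor1, a scaffold, log2 fold change 0.78, SE 0.21) and 0 fell by edgeR, also at an unadjusted p under 0.05 and by DESeq2. The Rcor1 call was lost without any 1 of the GMP or EoP libraries and with upper quartile factors or library size alone, at log2 fold changes from 0.32 with library size alone to 0.96 with a library left out. From EoP to Eos, Phf21a, a reader of unmethylated H3K4, rose by 2.18 (SE 0.26), from 62.1 and 63.4 to 220 and 348 CPM, and Hdac2, a deacetylase, fell by 1.26 (SE 0.25), both also with any library left out. Kdm1a, the demethylase LSD1 itself, did not pass (log2 fold changes −0.04 and 0.05; adjusted p = 0.907 and 0.889). It had from 59.2 to 70.3 CPM over the 6 libraries. The median of the list was 0.11 and then 0.02.

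A list of 13 genes held those of NuRD, which FOG1 recruits, and the corepressor genes Ctbp1 and Ctbp2, which are not NuRD subunits. Of the 13, 3 rose from GMP to EoP and 0 fell by edgeR, also by DESeq2, and 5 and 0 at an unadjusted p under 0.05. Mbd2, a methyl-DNA binder, rose by 1.28 (SE 0.25), the remodeller gene Chd3 by 1.65 (SE 0.30) and the corepressor gene Ctbp1 by 0.79 (SE 0.22). The 3 became 0 without GMP replicate 1 and 5 without either Eos library, and with library size alone 2 rose and 2 fell. In Eos, 2 were higher than in EoP (Mbd2 and Gatad2b) and 5 lower (Rbbp7, Mta1, Ctbp2, Mbd3 and Rbbp4), with Rbbp7, a histone chaperone gene, down by 1.91 (SE 0.35) and Mta1 by 1.18 (SE 0.27). The 2 rises were 1 without either GMP library, 0 without either EoP library or Eos replicate 2 and 3 without Eos replicate 1, and the 5 falls were 3, 2 and 3 without EoP replicate 1, EoP replicate 2 and Eos replicate 2. The medians were 0.29 and −0.25.

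Of 12 genes of the LDB1 complex and its ETO partners, 1 rose from GMP to EoP and 0 fell by edgeR, and 1 fell at an unadjusted p under 0.05 and by DESeq2. The gene that rose was Cbfa2t3 (ETO2), a corepressor of GATA1 and TAL1, with 63.7 and 72.3 CPM in GMP, 134 and 150 in EoP and 168 and 229 in Eos. Its log2 fold change was 1.07 (SE 0.23; edgeR, adjusted p = 0.0103), lost in 2 of the 6 fits with a library left out, those without GMP replicate 1 or 2, and with library size alone (0.60). In Eos against EoP 3 rose, Ssbp3 by 1.21 (SE 0.25), Lmo4 by 0.76 (SE 0.21) and Lyl1 by 0.65 (SE 0.20), and the E protein gene Tcf12 fell by 0.89 (SE 0.21). With a library left out the rises ran from 0 without EoP replicate 2 and 1 without EoP replicate 1 to 4 without Eos replicate 1, and the fall of 1 was 0 without EoP replicate 2 and 3 without Eos replicate 1. Ldb1, the adaptor, did not pass at either step (−0.06 and 0.44; adjusted p = 0.869 and 0.148). Against GMP, 3 were higher in Eos, Cbfa2t3 (log2 fold change 1.55), Ssbp3 (0.85) and Lmo4 (0.80), and 3 lower, Runx1t1 (−3.05), Tcf4 (−1.31) and Ssbp4 (−1.09). The falls were 0 without GMP replicate 1 or 2 or Eos replicate 2, 1 by DESeq2 and 7 with library size alone, and the rises were 1 without GMP replicate 1 and with library size alone. The medians for the 2 steps were −0.01 and −0.17.

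Of 11 coactivators and other GATA binding partners, 0 passed in either direction from GMP to EoP by edgeR, also at an unadjusted p under 0.05, by DESeq2, with any library left out and under each scaling, while 1 was higher in limma on log2(RPKM + 0.5). The median was 0.25. From EoP to Eos 7 rose and Runx1 fell, with a median of 0.70. The acetyltransferase genes Ep300 and Crebbp rose by 1.46 (SE 0.28) and 1.30 (SE 0.27), Ep300 from 339 and 386 to 765 and 1229 CPM. Runx1, a core haematopoietic factor, fell by 1.54 (SE 0.32). The 7 rises became 4 without either GMP library or Eos replicate 2, 4 with library size alone, and 2 without EoP replicate 1 or 2.

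Other genes of the same families were mostly near the floor. Of 9, 5 were tested. Gata4, Gata6, Zfpm2 and Tal2 were too low to test, and Gata5, which was tested, had at most 0.968 CPM. Lmo1 had 4.24 and 3.43 CPM in GMP, 0 and 0.257 in EoP and 1.61 and 1.17 in Eos, and was the 1 family gene called lower in EoP than in GMP (0 were higher by edgeR, also at an unadjusted p under 0.05 and by DESeq2). That call was lost without either GMP library. From EoP to Eos 4 of 5 rose, Lmo1, Lmo3, Lmo4 and Lyl1. Lmo3 rests on Eos values of 1.21 and 1.64 CPM with no count in EoP. The number was 2 without either GMP library, 0 without EoP replicate 1 and 1 without EoP replicate 2. Lmo4 at 137 to 264 CPM and Lyl1, a Tal1 relative, at 128 to 216 CPM were the abundant ones. The medians were −2.55 and 0.76.

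The genes whose pattern over the 6 libraries was most like each member were sought among 10078 genes with a mean of at least 5 CPM in their highest cell type. Likeness is the root mean square difference between centred log2 CPM values, where 0 is an identical pattern, and is a description over 6 libraries. For Gata1 these were Prkca (0.234), a protein kinase C gene, and Siglec5 (0.250), which encodes Siglec-F, the marker of the Eos gate. For Gata2 they were Csrp3 (0.185) and the survival gene Bcl2 (0.243), which had 39.5 and 85.1 CPM in EoP and so shared its unevenness there. For Gfi1b the nearest were Bhlhe40 (0.422), a helix-loop-helix repressor gene, and Igj (0.732), further off than the nearest genes of the other members. The measure is not scaled to a member's range, which for Gfi1b was from 0.363 to 89.2 CPM. Zfpm1 was nearest to Nxnl2 (0.303) and Grhl1 (0.328), and Gfi1 to Stambpl1 (0.0920) and Gys1 (0.176). Tal1 was nearest to Ube2m (0.0959) and Smyd3 (0.114), and Lmo2 to the mitochondrial carrier gene Slc25a12 (0.0641) and Galm (0.0833).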

How the data were processed

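RNA was measured in 6 libraries and H3K4me3 in 3. Per the file headers, the authors deposited estimated counts, rounded to whole numbers, and RPKM values for each RefSeq transcript. For H3K4me3 the authors deposited 1 peak list per library. Its columns, per the file headers, are the pileup signal at a summit, the fold enrichment, −log10 of p and of q, and the peak length. The submitters' processing notes name STAR 2.4.0c, Bowtie 1.0.0 and mm10. The counter and the peak caller have names not given in the sources used here, and the depth of the H3K4me3 libraries is unknown. Groups follow the library titles. Counts and RPKM were summed over the lines of a gene. Some genes are split into lines of equal counts: in 155 cases where 1 replicate was split so and the other was not, the sum differed by a median log2 ratio of −0.11 and the largest line by −1.19, so sums were used.

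Genes were tested in R 4.3.3 with edgeR 4.0.16 (quasi-likelihood test, TMM, default filter, all 6 libraries in 1 fit by cell type), Benjamini-Hochberg adjusted over 14324 genes at 0.05. The test was run on simulated counts first. CPM are scaled by TMM factors. A promoter peak is one the deposited annotation calls promoter. Alternatives used DESeq2 1.42.0, limma 3.58.1 on log2(RPKM + 0.5) or log2(RPKM + 0.1), other filters and each library left out. Up to 3 called genes per list, by size over comparisons, and 2 most alike genes per member were named by rule. Other list genes named were chosen after their values were seen. The members, the 15 other gene lists and the tests were chosen with earlier results of these data known. Falls among the erythroid and megakaryocyte markers from GMP to EoP are not reported here.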

Additional observations from a re-analysis of the deposited data

How the results depend on the processing

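Over 17 alternatives, the calls of Gata1, Gata2 and Gfi1b in the comparisons where they passed, and of Tal1 for Eos against GMP, were kept in direction and side of the threshold. The members lower in EoP than in GMP, 1 in the main fit, were 2 with DESeq2 size factors, upper quartile factors or library size alone. They were 0 in limma on log2(RPKM + 0.5), with or without a filter, and on log2(RPKM + 0.1). The number also moved with a library left out. Over all genes, 2453 of 14324 were lower in the main fit, and 2511, 2815 and 3617 with those scalings. In limma 352 of 9938 genes were lower, or 3052 of 21864 without a filter and 291 of 9938 on log2(RPKM + 0.1). Members higher in Eos than in EoP, 1 in the main fit, were 2 with no filter and 0 in each limma fit. Over all genes, 2733 of 14324 were higher in the main fit, 2894 of 21864 with no filter and 1440 of 9938 in limma on log2(RPKM + 0.5). Members lower there, 2 in the main fit, were 3 in that limma fit, which had 4311 of 9938 genes lower, against 2540 of 14324. Both numbers also moved with a library left out. Nothing particular to the members is read from these moves. Gfi1 for Eos against EoP ran from −0.81 without Eos replicate 1, the opposite direction, to 0.58 without Eos replicate 2. The causes were not tested, other than that fits with a library left out have fewer samples. The largest line of each gene, an alternative added after seeing the data, gave Lmo2 a log2 fold change of −2.31 for EoP against GMP. Lmo2 counts lay on 3 equal lines in EoP, of 152 each in replicate 1 and 288 each in replicate 2. In GMP nearly all lay on 1 line (1044 in replicate 1, and 724 of 746 in replicate 2). The largest line thus held less of the gene's sum in EoP than in GMP. Median shifts over all genes reached −0.46 with library size alone and 0.27 for RPKM (EoP against GMP), −0.47 for RPKM (Eos against EoP) and −0.58 with library size alone (Eos against GMP). Same-numbered libraries did not deviate together (r = −0.0995, 0.0194 and −0.0849 for the 3 pairs of cell types). With 1 difference between replicates per cell type, this cannot show whether same-numbered libraries shared a sort day or mice. With the replicate block 3 members were higher in Eos than in GMP, against 2, and no other count of members changed. Over all genes, 3108 of 14324 were higher with the block, against 3253 in the main fit. Promoter peak counts were 5 in GMP among top-ranked peaks, since Gata1 and Gata2 dropped out, and 7 in Eos, as in the whole list. The EoP list is the shortest and sets that rank, so its count could not change. With 2 libraries per cell type, counts under about 50, as for Gata3 in all libraries and Gata1, Zfpm1 and Gfi1b in GMP, limit precision.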
